A study of Mus musculus with 4 samples.

Results

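The genes described here encode the MHC class II antigen presentation system of the mouse: the classical chains H2-Aa, H2-Ab1 and H2-Eb1, the invariant chain Cd74, the peptide editors H2-DMa, H2-DMb1, H2-Oa and H2-Ob, and the class II transactivator Ciita. They were taken as every non-control probe whose gene name was one of these symbols, which gave 9 genes of 27597 and 14 probes of 41174. The genes were picked with their values on these same arrays already known, so every difference below is a description and none was tested. RNA of CD4 T cells from spleen and lymph nodes of BALB/c mice was measured on 4 one-colour Agilent arrays, 1 per group. The first group was labelled si-Eos and held natural regulatory T cells (Treg, CD4+CD25+) transduced with a lentivirus carrying a short hairpin RNA against Eos, the protein of Ikzf4. The second was labelled si-RL and held Treg transduced in parallel with a hairpin against Renilla luciferase, which mice do not have. Both carried GFP as reporter, were kept for 60 h in medium with human IL-2, and were sorted for GFP after culture. The third group held freshly isolated, untransfected Treg, and the fourth freshly isolated, untransfected naive T cells (CD4+CD25-CD62L-high). The number of mice behind each array was not given in the sources used here.

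With 1 array per group there was no replicate spread, and no p-value is given. Each ± below is the scanner's own error of both spots, combined on the log2 scale, and does not cover differences between animals, cultures or sorts. Levels are processed signals divided by the 75th percentile of the array's non-control probes, which was 320 in si-Eos, 262 in si-RL, 392 in Treg and 303 in naive T cells. Between 64.0% and 68.3% of probes were well above background, and no probe was saturated. All 10 T cell markers examined, among them the CD3 chains, were well above background on all 4 arrays. Ikzf4 went against the hairpin labels: its brightest probe stood at 0.779 in the si-Eos-labelled library and at 0.409 in the si-RL-labelled library, a log2 difference of 0.93 ± 0.21, and its other probes gave 1.96 and 1.19. Foxp3, the lineage factor of Treg, stood at 8.26 in the si-Eos-labelled library, at 0.420 in the si-RL-labelled library, at 4.54 in Treg and at 0.213 in naive T cells. Every direction between the hairpin libraries below follows the labels and would turn round if the labels were exchanged.

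MHC class II molecules are heterodimers of an alpha and a beta chain that present peptides from the endosomal pathway to CD4 T cells. The invariant chain Cd74 escorts them through the cell and blocks the groove until a fragment of it is exchanged for peptide with the help of the DM heterodimer, which the DO heterodimer restrains. The genes are transcribed mainly in B cells, dendritic cells and macrophages under the co-activator CIITA. Activated human T cells also express class II, whereas mouse T cells transcribe little of it and can take up class II protein from other cells.

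Class II promoters are known for a pair of short elements, the X box and the Y box, at which RFX and NF-Y proteins bind and recruit CIITA. RefSeq promoter windows, from 250 bases before to 50 bases after the annotated start in GRCm38.p6, were given for 6 of the 9 genes, in 7 windows. The windows were searched on both strands for CNNGNAAC, an X-box motif, and for ATTGG, the Y-box core, which reads CCAAT on the other strand. Both patterns were chosen after the sequences had been seen, and within the pair defined next they cannot overlap. Of 32851 windows, 39.1% held the first motif and 37.4% the second, and 1.17% held the first followed by the second with 18 to 45 bases between their starts on either strand, 0.584% on the gene's own strand. That arrangement stood on the gene's own strand in 5 of the 6 genes, all but H2-DMa. The stretches are shown to let the paired motifs of these 5 genes be compared. The other 4 genes either had no window or, for H2-DMa, no pair. They are printed on the gene's strand from 5′ to 3′, with the X-box motif and then the Y-box motif in capitals.
H2-Aa, minus strand, chr17:34287859-34287919: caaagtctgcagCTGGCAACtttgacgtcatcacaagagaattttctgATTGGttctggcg
H2-Eb1, plus strand, chr17:34305761-34305820: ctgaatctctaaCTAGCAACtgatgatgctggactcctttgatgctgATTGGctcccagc
H2-DMb1, plus strand, chr17:34153082-34153142: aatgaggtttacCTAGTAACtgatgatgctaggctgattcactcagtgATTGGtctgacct
H2-Oa, plus strand, chr17:34092288-34092348: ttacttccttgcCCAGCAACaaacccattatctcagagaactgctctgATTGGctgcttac
H2-Ob, plus strand, chr17:34238803-34238860: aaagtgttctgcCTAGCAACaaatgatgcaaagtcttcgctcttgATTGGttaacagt

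The X-box motif began 84 bases before the start in H2-Aa, 94 in H2-Eb1, 97 in H2-DMb1, 79 in H2-Oa and 90 in H2-Ob, and the Y-box motif followed 33 to 36 bases after it, start to start. The reference sequence is that of C57BL/6J mice, which carry another class II haplotype than BALB/c, so single bases may differ in the cells measured. A match describes letters and is no evidence that a factor was bound.

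**Figure D1:**
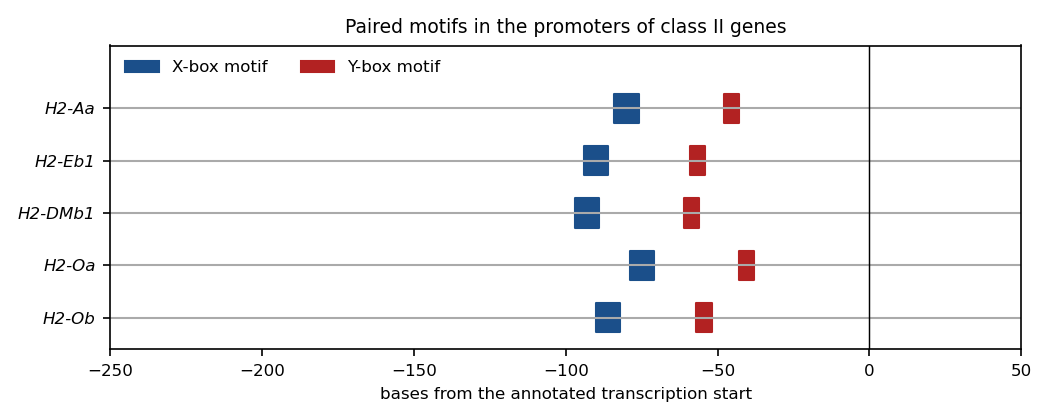
Position of the X-box motif (blue) and the Y-box motif (red) in the RefSeq promoter windows of the 5 class II genes that held both in order, in bases from the annotated transcription start (vertical line). The X-box motif began 79 to 97 bases before the start in all 5, and the Y-box motif followed 33 to 36 bases later.

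The classical chains stood higher in Treg than naive T cells, and their levels in the hairpin libraries did not run together. H2-Aa encodes the alpha chain of I-A, and its brightest probe lay on chromosome 17 at 33892022 to 33892081 (mm8, the build of the array design). It stood at 0.198 in the si-Eos-labelled library, was not well above background at 0.0233 in the si-RL-labelled library, and stood at 0.453 in Treg and at 0.0696 in naive T cells. H2-Aa was thus highest in Treg and measurable on 3 of the 4 arrays. It was 6.51-fold higher in Treg than naive T cells (log2 difference 2.70 ± 0.24) and at least 5.71-fold higher in the si-Eos than in the si-RL library. The log2 difference of 2.70 became 1.25 after normexp background correction from the local background and 1.27 with 1 background value per array. Each "at least" value sets the brighter array against the lowest signal that counted as well above background on the dimmer one, or against the dim probe's own signal where that was higher. Against Treg, the si-RL library was at least 13.1-fold lower and the log2 difference of the si-Eos library was -1.20 ± 0.21. The other H2-Aa probe, at 33892680 to 33892739, was well above background in the si-Eos library (0.0493) and in Treg (0.130) but not in the si-RL library (0.00892) or naive T cells (0.0215). It ran the same way in every comparison. In RNA from many cells, fewer cells of a type and less RNA per cell cannot be told apart, here or in any level below.

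H2-Ab1 encodes the partner beta chain of I-A and showed another order. Its brightest probe, at 33877309 to 33877368 on chromosome 17, stood at 2.96 in the si-Eos-labelled library, at 2.54 in the si-RL-labelled library, at 1.91 in Treg and at 0.359 in naive T cells. Only the naive T cells were low, and the other 3 arrays lay close together. The gene was 5.33-fold higher in Treg than naive T cells (log2 2.41 ± 0.21), and its other 3 probes gave log2 differences of 1.46, 1.65 and 1.90. Between the si-Eos and the si-RL library the brightest probe differed by 0.22 ± 0.20, and the other probes gave 0.33, -0.08 and -0.21, so that the probes did not share a direction. Against Treg, H2-Ab1 stood higher by 0.41 ± 0.20 in the si-RL library and by 0.63 ± 0.20 in the si-Eos library, with the same sign on all 4 probes. One of these probes was printed as 10 spots, whose standard deviation within an array was 0.061 in si-Eos, 0.049 in si-RL, 0.063 in Treg and 0.12 in naive T cells on the log2 scale. The other probes were single spots, so that spread does not describe them. Between the hairpin libraries the scanner errors of the 4 probes were 0.20 to 0.22, close to or above most of their differences. In the si-RL library, then, the signal of the I-A beta chain stood above its Treg level while that of the I-A alpha chain was not well above background.

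H2-Eb1 encodes the beta chain of I-E, the other classical class II molecule of BALB/c mice. Its single probe, annotated to chromosome 17 between 33922800 and 33923261, stood at 0.648 in the si-Eos-labelled library, at 0.177 in the si-RL-labelled library, at 0.927 in Treg and at 0.304 in naive T cells. Treg was highest and the si-RL library lowest, below naive T cells as well. The log2 difference was 1.61 ± 0.21 between Treg and naive T cells and 1.87 ± 0.22 between the si-Eos and the si-RL library, a 3.66-fold higher level in the si-Eos-labelled library. Against Treg it was -2.39 ± 0.22 in the si-RL library and -0.52 ± 0.21 in the si-Eos library. H2-Ea, which encodes the I-E alpha chain and was not among the 9 genes, stood at 0.194 in the si-Eos-labelled library and at 0.296 in Treg. It was not well above background in the si-RL library (0.00941) or in naive T cells (0.0375). H2-Ea was at least 7.89-fold higher in Treg than naive T cells, at least 5.60-fold higher in the si-Eos than in the si-RL library, and at least 8.54-fold lower in the si-RL library than in Treg. Both I-E chains and the I-A alpha chain thus had the same order over the hairpin libraries and Treg, and the I-A beta chain did not.

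**Figure D2:**
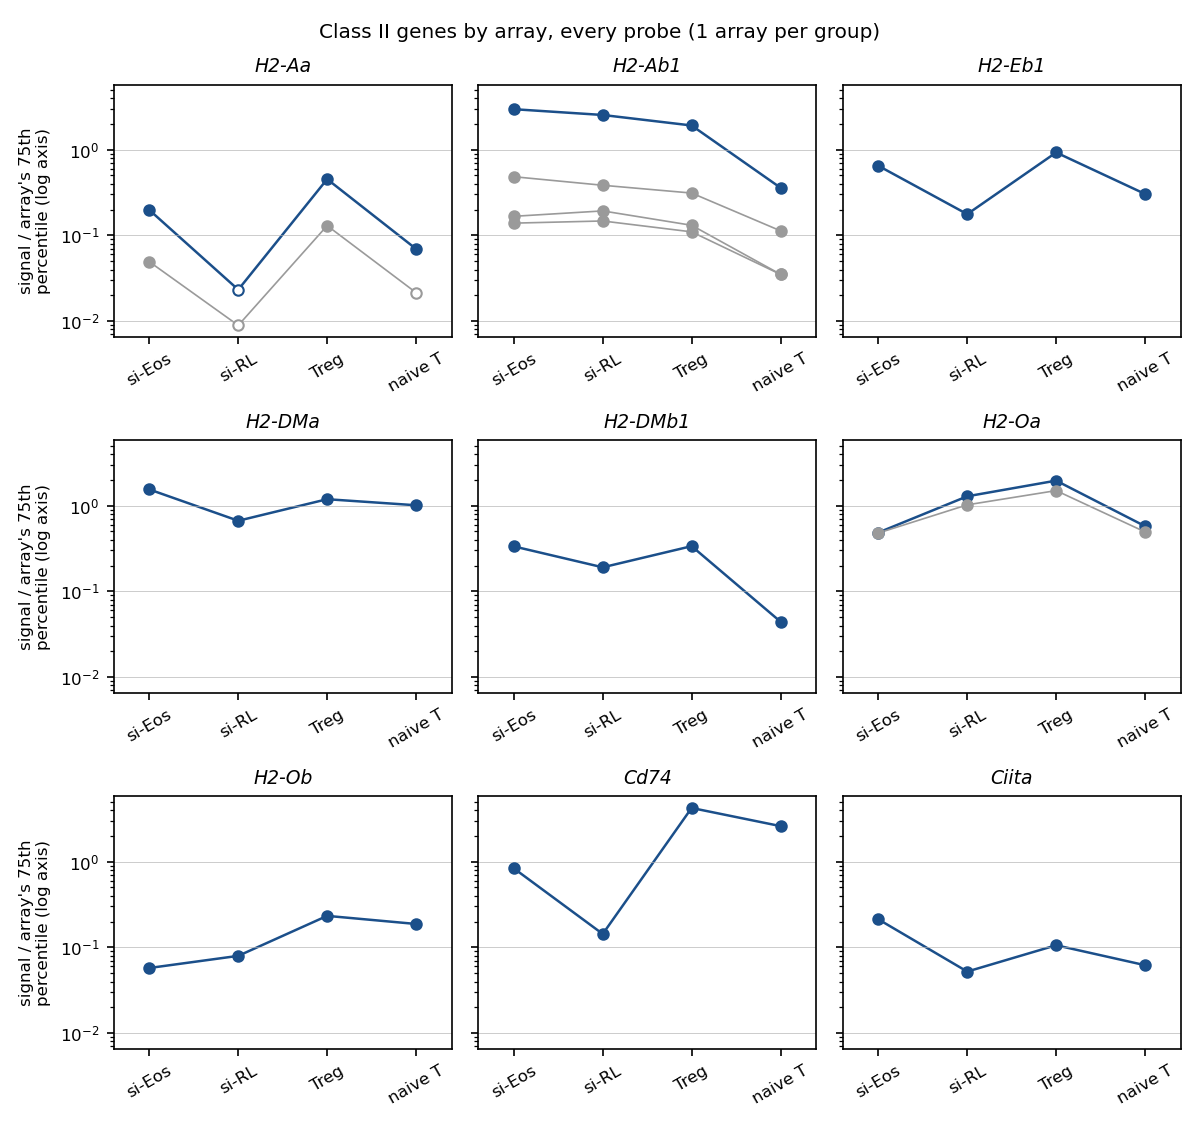
Level of each of the 9 class II genes on each array, as processed signal over the array's 75th percentile on a log axis; blue marks the brightest probe and grey the other probes of a gene, open symbols are probes not well above background, and lines only join the arrays. H2-Ab1 was low only in naive T cells, Cd74 stood at 0.143 in the si-RL-labelled library against 4.23 in Treg, and H2-Oa stood at 0.486 in the si-Eos-labelled library against 1.96 in Treg.

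The invariant chain had the widest span of the genes that were well above background on all 4 arrays, 29.5-fold between its highest and lowest level. The probe of Cd74, on chromosome 18 at 60937790 to 60937847, stood at 0.834 in the si-Eos-labelled library, at 0.143 in the si-RL-labelled library, at 4.23 in Treg and at 2.60 in naive T cells. Both fresh populations were higher than both cultured libraries. Between the fresh populations Cd74 differed little, 1.63-fold (log2 0.70 ± 0.20). Between the si-Eos and the si-RL library it was 5.82-fold higher (2.54 ± 0.23). Against Treg it was 29.5-fold lower in the si-RL library (-4.88 ± 0.22) and 5.07-fold lower in the si-Eos library (-2.34 ± 0.20). After normexp background correction from the local background these differences were -3.20 in si-RL and -1.71 in si-Eos. With 1 background value per array they were -3.69 and -2.18. The si-RL signal was dim, with a processed intensity of 37.6. H2-Ab1, whose product Cd74 escorts, stood higher in both cultured libraries than in Treg, so these partners differed in opposite directions on the same arrays.

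The peptide editors split in direction by heterodimer between the hairpin libraries, but not between Treg and naive T cells. In the main scaling, only H2-DMa and H2-Oa of them were 2-fold apart between the hairpin libraries. H2-DMa and H2-DMb1 encode the chains of DM, which removes the invariant chain fragment. H2-DMa, on chromosome 17 between 33747809 and 33748372, stood at 1.54 in the si-Eos-labelled library, at 0.666 in the si-RL-labelled library, at 1.19 in Treg and at 1.01 in naive T cells. Its levels spanned 2.32-fold, the narrowest of the 9 genes, with the si-RL library alone at the low end. The log2 difference was 0.23 ± 0.20 between Treg and naive T cells, 1.21 ± 0.20 between the si-Eos and the si-RL library, -0.84 ± 0.20 between the si-RL library and Treg, and 0.38 ± 0.20 between the si-Eos library and Treg. H2-DMb1, at 33767055 to 33767114, stood at 0.335 in the si-Eos-labelled library, at 0.191 in the si-RL-labelled library, at 0.337 in Treg and at 0.0443 in naive T cells. In the main scaling it had the largest difference of the 9 genes between Treg and naive T cells, 7.60-fold (2.93 ± 0.29). The naive T signal was dim, with a processed intensity of 13.4. After normexp background correction the difference was 1.27 from the local background and 1.11 with 1 background value per array. Both lay below those of H2-Ab1, 1.46 and 1.91. The si-Eos library stood above the si-RL library by 0.81 ± 0.21 and equalled Treg within the scanner's error (-0.01 ± 0.21), while the si-RL library differed from Treg by -0.82 ± 0.21. The DM chains therefore differed in how far they separated Treg from naive T cells. H2-DMb2, a near-identical beta chain gene, has a probe that is annotated to the H2-DMb1 transcript too, so signal of these genes may be shared. That probe gave 0.87 ± 0.27 between Treg and naive T cells and 0.59 ± 0.26 between the si-Eos and the si-RL library.

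H2-Oa and H2-Ob encode the chains of DO, and both were lower in the hairpin libraries than in Treg. The brightest H2-Oa probe, at 33705542 to 33705601, stood at 0.486 in the si-Eos-labelled library, at 1.29 in the si-RL-labelled library, at 1.96 in Treg and at 0.576 in naive T cells. Here the si-Eos library was lowest, next to naive T cells. The log2 difference was 1.76 ± 0.20 between Treg and naive T cells, -1.40 ± 0.20 between the si-Eos and the si-RL library, -0.61 ± 0.20 between the si-RL library and Treg, and -2.01 ± 0.20 between the si-Eos library and Treg. The other H2-Oa probe, at 33705473 to 33705533, gave 1.60, -1.09, -0.55 and -1.64 in the same order. H2-Ob, annotated between 33852080 and 33852311, stood at 0.0575 in the si-Eos-labelled library, at 0.0797 in the si-RL-labelled library, at 0.233 in Treg and at 0.188 in naive T cells. In the main scaling its fresh populations lay together and above both cultured libraries. Treg and naive T cells differed by 0.31 ± 0.22 and the si-Eos and si-RL libraries by -0.47 ± 0.32, whereas the difference from Treg was -1.55 ± 0.26 in the si-RL library and -2.02 ± 0.28 in the si-Eos library. After normexp from the local background, Treg stood above naive T cells by 0.78. The cultured signals were dim, with processed intensities of 18.4 in si-Eos and 20.9 in si-RL. Both DO chains were lower in the si-Eos than in the si-RL library, and both DM chains were higher, although for H2-Ob the difference was little larger than its scanner error. After normexp from the local background, H2-Ob was at -0.25 and H2-DMb1 at 0.33. With 1 background value per array they were at -0.28 and 0.40. Both H2-Ob values lay within its scanner error.

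Ciita encodes the co-activator on which class II transcription depends. Its probe, on chromosome 16 at 10439788 to 10439847, stood at 0.212 in the si-Eos-labelled library, at 0.0522 in the si-RL-labelled library, at 0.106 in Treg and at 0.0620 in naive T cells. These were dim signals: the processed intensity was 68.0 in si-Eos, 13.7 in si-RL, 41.5 in Treg and 18.8 in naive T cells. The si-Eos library was highest, and the si-RL library and naive T cells were close. The log2 difference was 0.77 ± 0.28 between Treg and naive T cells and 2.02 ± 0.33 between the si-Eos and the si-RL library, a 4.07-fold higher level in si-Eos. It was 1.0 ± 0.23 between the si-Eos library and Treg, a direction that turned to -0.93 after normexp background correction from the local background. It was -1.02 ± 0.33 between the si-RL library and Treg, which became 0.0016 after normexp with 1 background value per array. The direction of Ciita against Treg thus hung on how its background was taken off in both hairpin libraries.

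**Figure D3:**
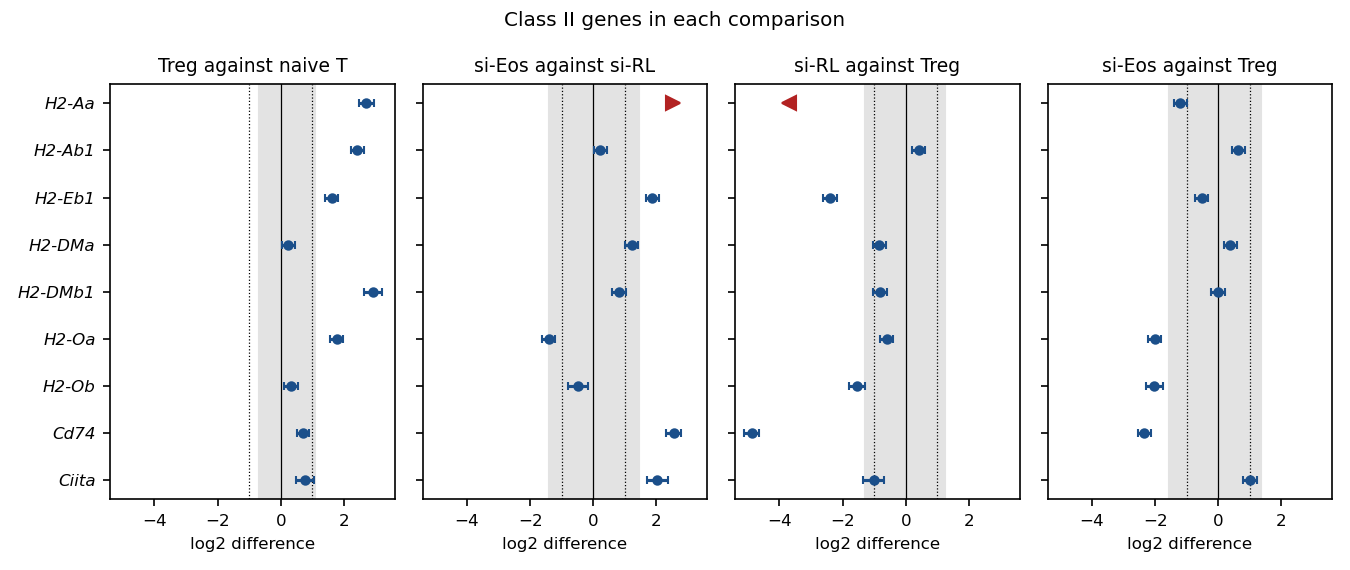
Log2 difference of each class II gene (brightest probe) in the 4 comparisons, with bars for the scanner error; triangles mark the bounds for H2-Aa where it was not well above background on 1 of the arrays, dotted lines mark 2-fold, and the grey band holds the central 90% of all genes. Treg against naive T cells ran from 0.23 to 2.93, and the si-RL library against Treg ran down to -4.88 for Cd74.

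By comparison, 5 of the 9 genes (H2-Aa, H2-Ab1, H2-Eb1, H2-DMb1 and H2-Oa) were at least 2-fold higher in Treg than naive T cells and none was 2-fold lower. Of the 17593 genes measured on both arrays, 5.51% were at least 2-fold higher and 2.04% at least 2-fold lower. The median log2 difference was 1.61 for the class II genes and -0.02 for all genes. Cd74, Ciita, H2-Ob and H2-DMa also lay above 0, between 0.23 and 0.77, inside the central 90% of all genes, which ran from -0.69 to 1.08. With 1 background value per array, Ciita fell to 0.07 and H2-Ob to 0.04. Normexp from the local background instead raised Ciita to 1.01 and H2-Ob to 0.78. H2-DMa fell to 0.02 after median scaling and to 0.05 after normexp from the local background.

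Between the si-Eos-labelled library and the si-RL-labelled library, 4 of the 8 genes measured on both (Cd74, Ciita, H2-Eb1 and H2-DMa) were at least 2-fold higher and 1 (H2-Oa) at least 2-fold lower, beside H2-Aa, which was well above background only in si-Eos. These shares stood against 10.7% higher and 10.1% lower among 17084 genes. The median was 1.01 for the 8 genes and 0.04 for all genes, whose central 90% ran from -1.39 to 1.46. After normexp correction from the local background only Cd74 was 2-fold higher, with H2-Eb1 at 0.96, H2-DMa at 0.97 and Ciita at 0.51.

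Against Treg, 4 of 8 genes were at least 2-fold lower in the si-RL-labelled library (Cd74, H2-Eb1, H2-Ob and Ciita, though Ciita was at -0.94 after median scaling, -0.92 after quantile normalization and 0.0016 as given above) and none was 2-fold higher, beside H2-Aa, which was well above background only in Treg. Among 17081 genes, 8.20% were that much lower and 7.89% that much higher. In the si-Eos-labelled library, 4 of 9 genes were at least 2-fold lower than in Treg (Cd74, H2-Ob, H2-Oa and H2-Aa) and 1 (Ciita) was at least 2-fold higher, a call that normexp turned round as given above. Among 17897 genes, 10.0% were that much lower and 8.85% that much higher. The medians were -0.93 in the si-RL and -0.52 in the si-Eos library, and -0.01 and 0.06 over all genes. After normexp with 1 background value per array, H2-Ob did not reach 2-fold in either library (-0.39 in si-RL and -0.67 in si-Eos), nor H2-Aa in si-Eos (-0.72). These comparisons share the Treg array, and transduction, culture with IL-2 and the GFP sort cannot be told apart in them.

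Over the 4 arrays, Treg held the highest level of 6 of the 9 genes and the si-Eos-labelled library that of the other 3 (H2-Ab1, H2-DMa and, except after normexp from the local background, Ciita). H2-DMb1, counted among the 6, was as high in si-Eos within the scanner's error, and si-Eos was higher after median scaling (0.11), quantile normalization (0.082) and normexp with 1 background value per array (0.044). On 2 of its 4 probes H2-Ab1 was highest in si-RL. The library labelled si-RL held the lowest level of 5 genes, and si-Eos and naive T cells that of 2 each.

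**Figure D4:**
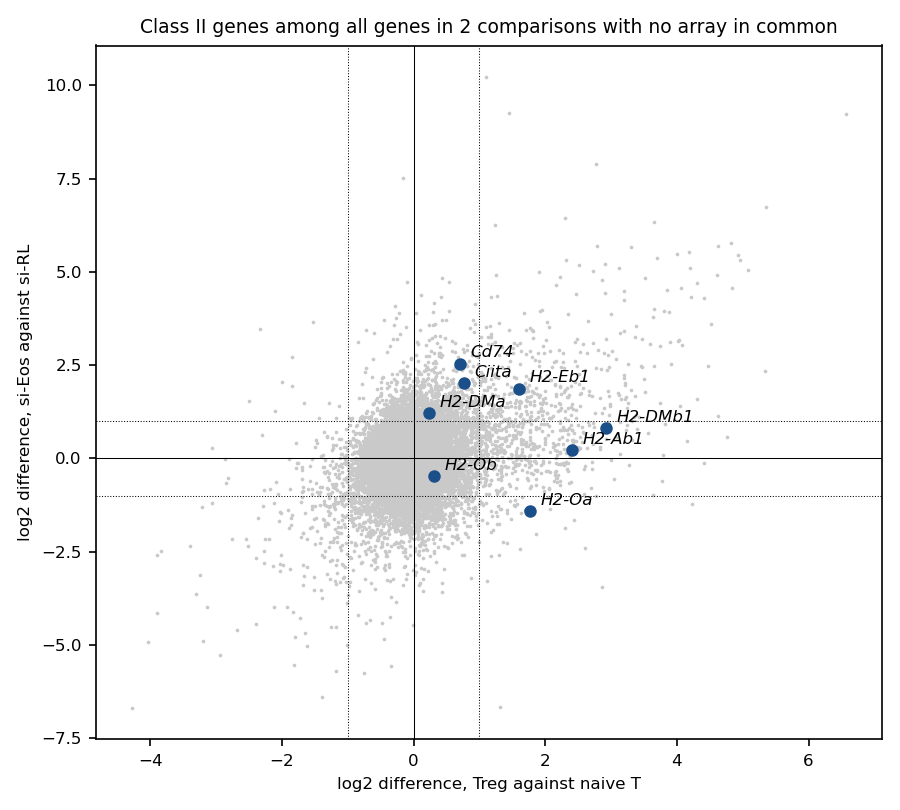
Each grey point is a gene measured on all 4 arrays, with its log2 difference between Treg and naive T cells on the x axis and between the si-Eos and si-RL libraries on the y axis, 2 comparisons with no array in common; dotted lines mark 2-fold. The 8 class II genes measured throughout (blue) all lie right of 0, from 0.23 to 2.93, and on the y axis run from -1.40 for H2-Oa to 2.54 for Cd74.

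The factors that bind class II promoters were read beside their targets. RFX5, RFXAP and RFXANK form the RFX complex at the X box, NFYA, NFYB and NFYC form NF-Y at the Y box, and CREB1 binds beside the X box. None of these 7 genes was 2-fold apart between Treg and naive T cells (median log2 difference -0.05). Between the hairpin libraries, Nfya was higher in the si-Eos-labelled library by 1.44 and Creb1 was lower (-1.02), with a median of -0.35. Nfya stood at 2.60 in the si-Eos-labelled library, at 0.958 in the si-RL-labelled library, at 14.0 in Treg and at 11.3 in naive T cells. Like Cd74, it was higher in both fresh populations than in both cultured libraries, with log2 differences of -3.87 in si-RL and -2.43 in si-Eos against Treg. The only other factor 2-fold apart from Treg was Rfxank, lower in the si-Eos library (-1.28). The median against Treg was 0.03 in si-RL and -0.32 in si-Eos.

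Genes for processing and traffic of class II molecules were examined next, among them endosomal proteases and regulators of surface class II. Between Treg and naive T cells, 2 of 11 were at least 2-fold higher and none lower, with a median of 0.06. These were Cd83 (4.48 ± 0.20), whose protein stabilises class II at the cell surface, and Marchf8 (1.53 ± 0.34), a ubiquitin ligase that removes it from there. Between the si-Eos and the si-RL library, 4 of 10 were higher (Cd83 by 2.49, Marchf8 by 2.18, Ctsz by 2.06 and Ctsb by 1.12) and 1 lower (Ctsl, -1.05), with a median of 0.47. Ctsz, Ctsb and Ctsl encode cathepsins, lysosomal proteases. Cd83 stood at 9.46 in the si-Eos-labelled library, at 1.69 in the si-RL-labelled library, at 13.5 in Treg and at 0.607 in naive T cells. It therefore had the same order of the hairpin libraries and Treg as H2-Aa and H2-Eb1. Against Treg, the si-RL library was at least 2-fold lower for 2 of 10 genes, Cd83 (-3.00) and Ctss (-1.28), the protease that cuts the invariant chain, and the median was -0.27. The si-Eos library was higher for 3 of 10 (Marchf8 by 3.04, Ctsz by 1.94 and Ctsd by 1.38) and lower for 2 (Ctss, -1.78, and Lgmn, -1.23), with a median of 0.07. Cd83 and Marchf8, whose protein functions are opposed, thus had levels that differed in the same direction between Treg and naive T cells and between the hairpin libraries. For Marchf8 the naive T signal was dim, with a processed intensity of 10.3. Its level of 0.0339 was near the lowest that counted as well above background on that array, 0.0294.

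Interferon gamma is the main inducer of Ciita outside professional antigen-presenting cells. Its gene Ifng stood at 12.3 in the si-Eos-labelled library, at 0.447 in the si-RL-labelled library, at 10.5 in Treg and at 1.45 in naive T cells. Ifng was higher in Treg than naive T cells by 2.86 and in the si-Eos than in the si-RL library by 4.78 on the log2 scale, and lower in the si-RL library than in Treg (-4.56). Of the 9 genes of this pathway, only Ifng was 2-fold apart between Treg and naive T cells (median of the list 0.29). Between the hairpin libraries 2 were higher in si-Eos, Ifng among them, and 2 lower (Ifngr2, a receptor chain, -1.48, and Irf2, -1.19), with a median of -0.19. The si-RL library was higher than Treg for 2 (Ifngr2, 1.16, and the inhibitor Socs1, 1.13) and lower for 2, Ifng among them, and the si-Eos library was higher for 1 (Socs1, 1.54). The median of the list against Treg was 0.87 in si-RL and -0.32 in si-Eos.

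Class I presentation genes gave a measure of whether other antigen presentation genes had the same differences. None of 14 was 2-fold apart between Treg and naive T cells, and their median was -0.11, against 1.61 for the class II genes. Between the si-Eos and the si-RL library only Tap1, a peptide transporter subunit, passed 2-fold (2.67 ± 0.20), and the median was 0.46. Tap1 stood at 5.64 in the si-Eos-labelled library, at 0.886 in the si-RL-labelled library, at 3.87 in Treg and at 3.96 in naive T cells, so that only the si-RL library was low. Against Treg, 4 of 14 were at least 2-fold lower in the si-RL library (Tap1, -2.13; H2-M3, -1.13; Tapbp, -1.10; Psmb9, -1.03) with a median of -0.73. In the si-Eos library 2 were lower (Erap1, -1.12, and H2-M3, -1.01) with a median of -0.19.

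**Figure D5:**
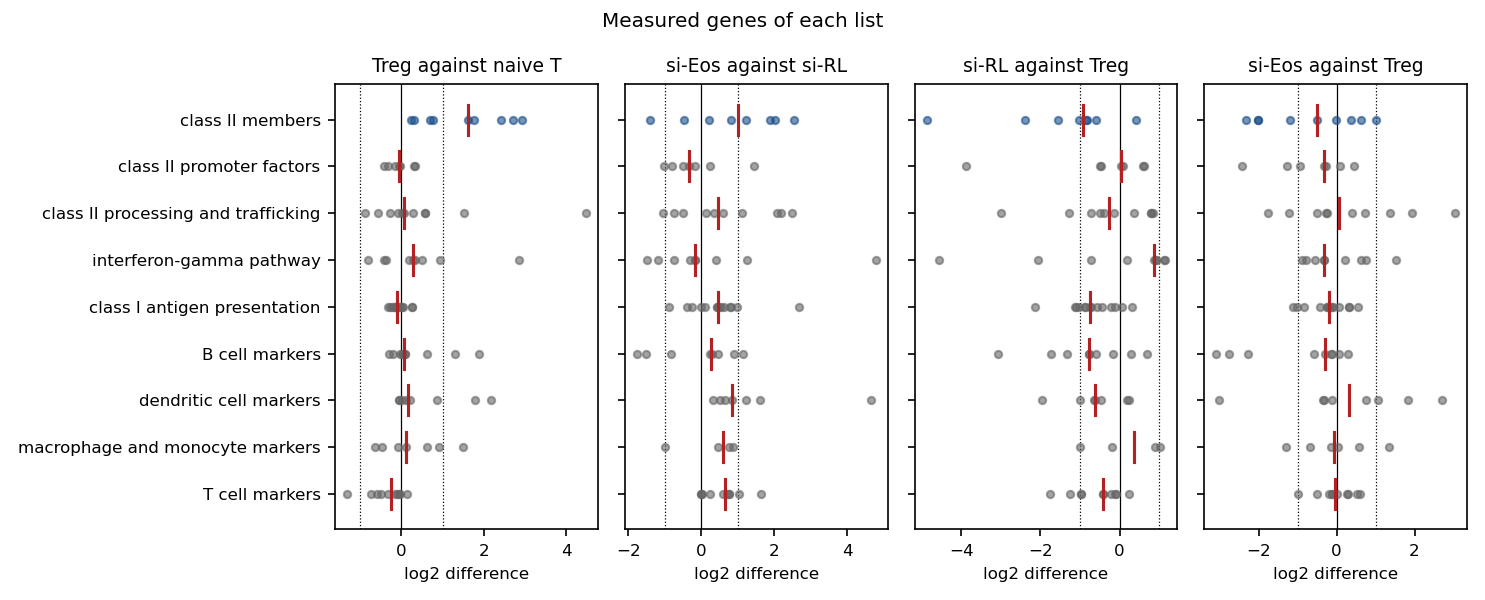
Log2 difference of every measured gene in the class II list and the comparison lists, by comparison; blue points are the 9 class II genes, grey points the other lists, and red bars the medians. In Treg against naive T cells the class II genes have a median of 1.61 and the class I genes a median of -0.11.

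Class II genes are also carried by B cells, dendritic cells and macrophages, and their markers were read on the same arrays. Of 16 B cell markers, 12 were well above background in the si-Eos-labelled library, 9 in the si-RL-labelled library, 12 in Treg and 10 in naive T cells. Their summed level was 6.86 in si-Eos, 16.6 in si-RL, 40.6 in Treg and 19.4 in naive T cells. Most of each sum came from Ighm, the mu heavy chain, at 3.98 in si-Eos, 13.6 in si-RL, 34.0 in Treg and 13.8 in naive T cells. Ighm was higher in Treg than naive T cells by 1.30 and Cd79b, a B cell receptor subunit, by 1.88, in log2. Ms4a1, which encodes CD20, stood at 0.476 in si-Eos, 0.406 in si-RL, 0.458 in Treg and 0.431 in naive T cells, so that Treg and naive T cells were close. Cd22 (0.0586) and Spib (0.0399) were well above background in Treg but not in naive T cells (0.0205 and 0.0240), and no marker was so the other way round. The median between Treg and naive T cells given below leaves both out. The B cell factors Pax5 and Ebf1 and the receptor Fcer2a were well above background only in the si-Eos-labelled library, and the kinase Blk on no array. The median difference of the measured B cell markers was 0.06 between Treg and naive T cells, 0.26 between the hairpin libraries, and, against Treg, -0.77 in si-RL and -0.31 in si-Eos.

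Of 12 dendritic cell markers, 8 were well above background in the si-Eos-labelled library, 7 in si-RL, 8 in Treg and 8 in naive T cells. Their summed level was 43.5 in si-Eos, 7.96 in si-RL, 15.0 in Treg and 10.0 in naive T cells. The factor Irf8, which activated T cells also express, made up much of the first sum, at 28.4 in si-Eos, 1.13 in si-RL, 4.39 in Treg and 0.976 in naive T cells. Cd86, a costimulatory ligand, stood at 0.0953 in si-Eos, was not well above background in si-RL, and stood at 0.768 in Treg and at 0.222 in naive T cells. Clec9a, Cd209a, Siglech and Clec10a were not well above background on any array, whereas Itgax, Flt3, Zbtb46, Xcr1, Batf3, Cst3 and Irf8 were so on every array. Xcr1, for example, stood at 1.39 in si-Eos, 0.890 in si-RL, 1.77 in Treg and 1.85 in naive T cells. The 11 macrophage markers summed to 2.21 in si-Eos, 1.91 in si-RL, 1.95 in Treg and 1.80 in naive T cells, with 7, 4, 8 and 8 of them well above background, and Fcgr1 on none. The median difference of the measured dendritic cell markers was 0.17 between Treg and naive T cells and 0.86 between the hairpin libraries, where all 7 measured were higher in si-Eos, and, against Treg, -0.63 in si-RL and 0.31 in si-Eos. The B cell and dendritic cell sums were higher in Treg than naive T cells mainly through Ighm, Cd79b and Irf8. The part of B cells and dendritic cells in the class II difference between Treg and naive T cells was not tested. Between the hairpin libraries the B cell sum was lower in si-Eos and the dendritic cell sum higher, and their part was not tested there either. Ms4a1, Xcr1 and the markers named for lying above or near background were singled out after their values were seen.

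The genes whose pattern over the 4 arrays lay nearest to the class II genes were sought among 5040 other genes well above background on all arrays and at least 2-fold apart between their highest and lowest level. The measure was the root mean square difference, on the log2 scale, from the mean centred profile of the 8 class II genes measured throughout, which was 0.24 in si-Eos, -0.61 in si-RL, 0.85 in Treg and -0.49 in naive T cells. The 5 nearest were the Src family kinase gene Fgr (0.0675), Mxd4 (0.0875), whose product is a partner of MAX, the lipopolysaccharide receptor gene Tlr4 (0.106), the solute carrier gene Slc45a4 (0.110) and Il17re (0.110), of the interleukin-17 receptor family. The class II genes themselves lay farther from their own mean, from 0.40 for H2-Eb1 to 1.58 for Cd74. The measure rests on 4 points per gene, and all points of an array share its scaling.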

How the data were processed

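Amplified total RNA was labelled with Cy3 and, per the file headers, the scans were quantified in Feature Extraction 9.5.3.1 of Agilent. The deposited values used were processed signals, a linear intensity with background subtracted by the authors' scanner software and no scaling between arrays; the deposited value table held the same intensities (45007 matched, 100% within 0.5%). Outlier-flagged spots were left out (71 in si-Eos, 86 in si-RL, 94 in Treg, 91 in naive T) and spots of 1 probe averaged. Signals were divided by the array's 75th percentile of non-control probes before log2. A gene is its brightest probe (highest mean scaled level), measured where well above background on both arrays. Differences were counted at 2-fold. Probe names were updated through RefSeq accession (24375 probes), symbol (6301) or synonym (2426), and 8072 kept the array's name. All 4 arrays shared 1 slide and 1 scan. Alternatives were median scaling, quantile normalization, normexp (limma 3.58.1, R 4.3.3, offset 50) from local or array-wide background, no background filter, the mean of all probes, and the deposited table. The 9 genes, the comparison lists and the rules for naming genes (every member; up to 4 genes per list and comparison at least 2-fold apart; the 5 nearest profiles) were chosen with earlier results of these data known. Calculations used Python 3.11.15, numpy 2.4.6 and pandas 2.3.3. Only the 2-fold count and the search for the nearest profiles were tested on simulated signals. For the count, the planted differences exceeded the limit and the noise was the scanner error alone. The number of arrays limits the precision. Nlrc5 and Igkc were not found on the array under those names. Some genes of the comparison lists are counted but not reported here by name.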

Additional observations from a re-analysis of the deposited data

Results flagged for a closer look

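H2-DMa and Ciita stood above their Treg level in the si-Eos-labelled library and below it in the si-RL-labelled library. The log2 difference of H2-DMa from Treg was 0.38 in si-Eos and -0.84 in si-RL. That of Ciita was 1.0 in si-Eos and -1.02 in si-RL, and each of its directions turned under 1 of the normexp corrections. With 1 array per group the opposite directions were not tested, and both comparisons share the Treg array.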

How the results depend on the processing

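No result has a replicate, so no array could be left out. No paired analysis was possible because each group was 1 array. Of the alternative values for single genes, 185 moved by less than the scanner error, 51 moved by more and 2 reversed; of the medians and counts, 14 moved by more than the members' median scanner error or, for counts, by more than 1.5 times, and 70 stayed within that tolerance. Within it, the count 2-fold lower in si-RL against Treg was 3 in place of 4 under median scaling and quantile normalization, and 5 after normexp from the local background and without the background filter. The count 2-fold higher in si-Eos against si-RL was 5 without that filter, and that in Treg against naive T cells was 6 in place of 5 after normexp. The median over the class II genes between Treg and naive T cells was 1.61; it was 1.40 after median scaling, 1.03 after normexp from the local background and 1.11 after normexp with 1 background value per array, an alternative chosen after seeing the data. Between the si-Eos and si-RL libraries it was 1.01, with 4 genes at least 2-fold higher; normexp gave 0.42 and 1 gene, and the single background 0.48 and 2 genes. For the si-RL library against Treg, the median was -0.93, and -1.23 after normexp and -0.45 with the single background, under which 2 genes in place of 4 were 2-fold lower. For the si-Eos library against Treg, the median was -0.52, and -0.93 after normexp. There the count of genes 2-fold higher was 0 under both corrections, and the count 2-fold lower was 2 under the single background. Ciita reversed against Treg: to -0.93 in si-Eos after normexp and to 0.0016 in si-RL after the single background. The cause was not tested. The median of all genes shifted by -0.21 between Treg and naive T cells and by 0.12 in si-Eos against Treg after median scaling. Normexp shifted it by 0.23 between Treg and naive T cells, by -0.30 in si-RL and by -0.42 in si-Eos against Treg, and the single background by 0.12 in si-RL against Treg. H2-DMb1 between si-Eos and Treg lay so near 0 that its sign turned under 3 alternatives. Dim probes (H2-Aa, H2-Ob, H2-DMb1, Ciita and, in the si-RL library, Cd74 and H2-Eb1) limit what the signal over background can show.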
